A study of Homo sapiens with 41 samples.

Results

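The regions described here are sites between genes that CTCF and cohesin shared in unstressed T47D cells. The 3 untreated CTCF peak lists merged into 67597 sites, of which 25605 had a CTCF peak in every one of these lists and 9331 also had a RAD21 peak in all 3 untreated RAD21 lists. Of those 9331 sites, 4543 lay outside every protein-coding gene of the RefSeq annotation and over 1 kb from any end of such a gene, on chromosomes 1 to 22 and X, and these 4543 are the sites between genes. The remaining CTCF-cohesin sites were at gene ends (1478) or inside gene bodies (3310), and serve as comparison. The untreated CTCF and RAD21 lists chose the sites, so the presence of both proteins without stress is a description and was not tested.

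T47D is a luminal breast cancer cell line, and the study followed CTCF, the cohesin subunit RAD21 and RNA polymerase II (Pol II) by chromatin immunoprecipitation sequencing while the cells were under salt stress. All groups were first depleted of steroids and then of serum, which holds the cells in G0/G1, so that the untreated cells were starved cells. The stressed cells then received 110 mM NaCl (the concentration in the sample titles, where the series text gives a slightly lower one) for 7.5 min, 30 min or 1 h, and recovery libraries came from cells returned to isotonic medium for 1 h after 1 h of stress. Before stress, some cultures were given triptolide (500 nM for 2 h), which blocks the initiation of transcription.

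The untreated and 1 h groups had 3 CTCF and 3 RAD21 libraries each, RAD21 recovery had 3, CTCF at 7.5 min had 2, CTCF at 30 min had 1, and Pol II had 2 libraries without stress and 2 at 1 h. Replicates 1 and 2 belonged to set 1 of the deposit, and the other untreated, 1 h and recovery libraries belonged to set 2, which also held the only CTCF recovery library and all 6 triptolide libraries, 1 per state. Nothing in the sources used here says that replicates came from separate cultures, so p-values measure only the spread between libraries. In 6 of the 12 set 2 libraries the pre-treatment entry disagreed with the title on triptolide, and the titles were followed. As a check of the cell type, Pol II regions covered at least 50% of the gene in 20 and 19 of 27 luminal genes in the untreated libraries, against 0 and 1 of 16 blood cell genes and 0 of 12 neuronal or muscle and 0 of 12 fibroblast genes.

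CTCF is a zinc finger protein that binds a long DNA motif and halts loop extrusion, the process in which the ring-shaped cohesin complex reels in chromatin until it meets bound CTCF. RAD21 is the cohesin subunit that closes the ring, so a RAD21 peak on a CTCF site marks cohesin held there. Sites far from genes commonly anchor loops and the borders of topological domains.

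Sequence could be read for the sites whose CTCF summit fell in a RefSeq promoter window (GRCh38.p14, 300 bases), which between protein-coding genes belong mostly to noncoding RNAs. This was so for 94 sites. The core of the CTCF motif was searched on both strands as CC, any 3 bases, AG, any 2 bases and GGC, with no other motif searched, and the windows of 54 of the 94 sites (57.4%) held it, against 3700 of 34961 promoter windows in all (10.6%). The centre of the nearest copy lay a median of 12 bp from the CTCF summit. The core was present at 31 of 51 such sites with RAD21 in every 1 h library, at 17 of 27 with RAD21 in 1 or 2 of them and at 6 of 16 with RAD21 in none. The following examples are shown because they set sites with RAD21 at 1 h beside sites without it, with the core in capitals, the flanks in lower case and the strand that carries the core read 5′ to 3′. In the 3 examples that had both proteins in every 1 h library, the sequences were as follows.
MSRB3-HMGA2 (chr12:65556876-65556927, + strand): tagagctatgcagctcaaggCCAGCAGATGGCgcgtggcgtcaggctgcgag
KITLG-DUSP6 (chr12:89019729-89019780, + strand): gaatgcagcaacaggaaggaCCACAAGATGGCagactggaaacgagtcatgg
WASF3-GPR12 (chr13:26698848-26698899, - strand): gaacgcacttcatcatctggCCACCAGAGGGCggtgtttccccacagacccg
In 4 examples CTCF was in every 1 h library and RAD21 in 1 or 2 of them.
MAU2-GATAD2A (chr19:19367006-19367057, + strand): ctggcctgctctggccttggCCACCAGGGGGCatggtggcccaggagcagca
TFAP2C-BMP7 (chr20:56974552-56974603, - strand): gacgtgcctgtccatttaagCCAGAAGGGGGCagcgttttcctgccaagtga
MAX-FUT8 (chr14:65222508-65222559, + strand): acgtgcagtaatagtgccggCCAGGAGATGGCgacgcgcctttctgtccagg
CACNA1C-FKBP4 (chr12:2739985-2740036, + strand): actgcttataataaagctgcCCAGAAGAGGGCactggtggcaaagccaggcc
In 3 examples CTCF was in every 1 h library and RAD21 in none.
KRABD3-ZNF467 (chr7:149742324-149742375, - strand): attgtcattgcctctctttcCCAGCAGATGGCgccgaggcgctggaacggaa
ANKRD9-RCOR1 (chr14:102524627-102524678, + strand): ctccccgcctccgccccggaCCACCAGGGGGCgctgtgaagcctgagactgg
HNRNPH1-CBY3 (chr5:179657985-179658036, + strand): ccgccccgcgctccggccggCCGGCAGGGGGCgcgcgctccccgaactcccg
The core of the MSRB3-HMGA2 site, which kept RAD21, and that of the KRABD3-ZNF467 site, which had no RAD21 peak at 1 h, were the same 12 letters, and so were those of the MAU2-GATAD2A and ANKRD9-RCOR1 sites. A match is a description of letters in a window and not a mapped binding site.

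The sites between genes were 330 to 3209 bp wide (median 614 bp) and lay 1.015 kb to 4242 kb from the nearest end of a protein-coding gene, with a median of 21.3 kb. A gene end was over 100 kb away for 774 sites and over 500 kb away for 138. The next CTCF-cohesin site of any position was a median of 59.5 kb away, and 1147 sites (25.2%) overlapped the span of a long noncoding RNA. The intervals between genes held 2.70 sites per Mb, from 0.658 per Mb on X to 6.84 per Mb on chromosome 22. At the margin of the rule, the 113 sites between 1 and 1.5 kb from a gene end had RAD21 in 47.8%, 63.7% and 54.9% of cases in the 3 libraries at 1 h, and the 156 CTCF-cohesin sites left out because a gene end lay 0.5 to 1 kb away in 37.8%, 69.2% and 52.6%. On the other side of the rule, CTCF sites between genes with RAD21 in only 2 of the 3 untreated lists numbered 2585, and 13.3%, 15.4% and 23.8% of them had RAD21 at 1 h.

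The lists differed widely in length, which bears on every count below. RAD21 lists held 13762 to 24931 peaks without stress, 4761 to 7843 at 1 h and 4397, 20400 and 6492 in recovery, so that recovery replicate 2 stood apart from the other 2. CTCF lists held 38571 to 59843 peaks without stress, 31074 and 36962 at 7.5 min, 26737 at 30 min and 35374, 34205 and 22018 at 1 h, the set 2 list being the shortest. The CTCF recovery list without triptolide held 46377. The lists carry no read numbers, so the depth behind a peak is unknown, and what follows is the presence of a listed peak, not an amount of bound protein. Counting intervals for single libraries are exact 95% Clopper-Pearson intervals and cover counting error only.

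After 1 h of stress most sites between genes still had a CTCF peak and many had no RAD21 peak. CTCF was present at 97.7%, 95.4% and 80.5% of the 4543 sites in the 3 libraries (mean 91.2% ± 9.29, SD, n = 3), and RAD21 at 46.2%, 64.5% and 59.8% (mean 56.9% ± 9.50, SD, n = 3). Every CTCF library lay above every RAD21 library, and the difference of 34.3 percentage points had an exact 2-sided permutation p of 0.1, the smallest that 3 against 3 libraries allow (0.64 after Benjamini-Hochberg adjustment over the 8 comparisons tested here). Within replicate numbers the difference was 51.4, 30.8 and 20.7 points. CTCF and RAD21 are separate antibodies with lists of different length, so the sizes of their losses are not on a common scale.

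**Figure D1:**
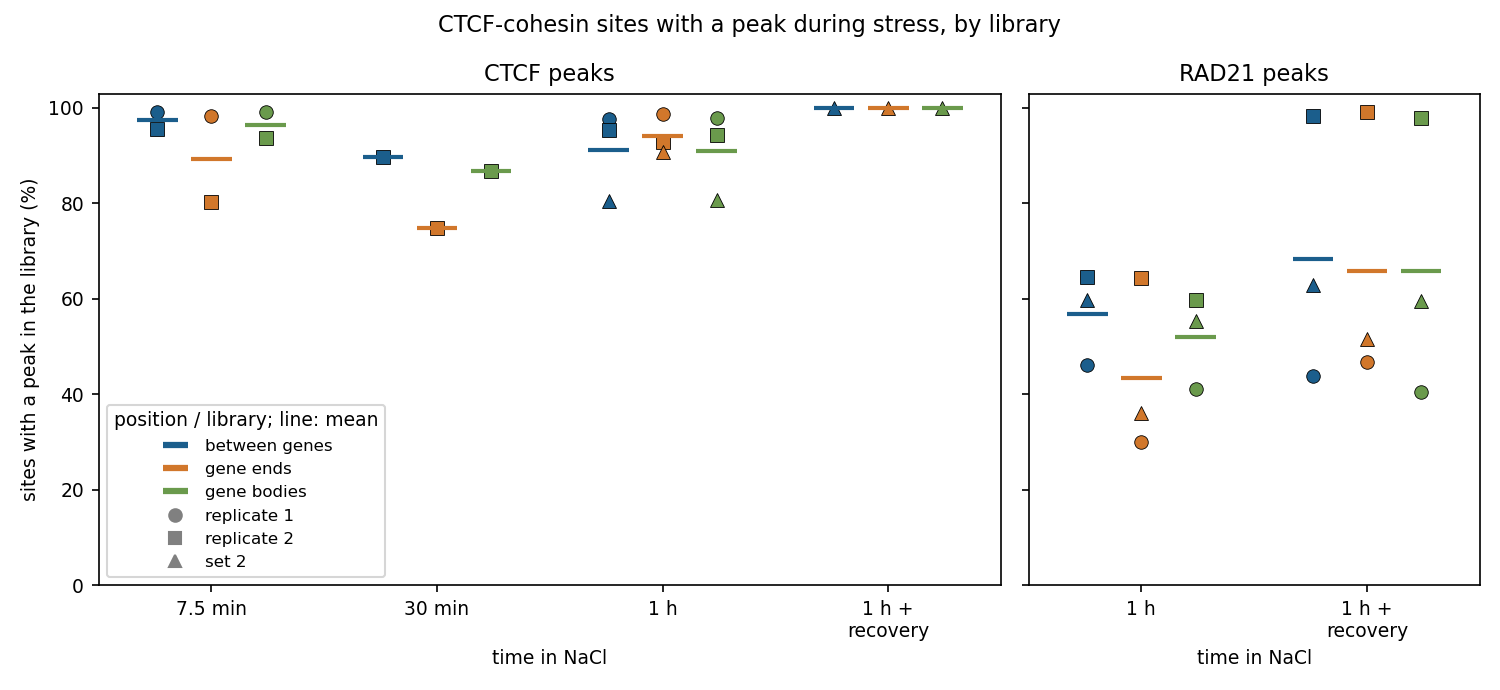
Share of CTCF-cohesin sites (%) with a CTCF peak (left) or a RAD21 peak (right) in each stressed library, by time in NaCl, for sites between genes (blue), at gene ends (orange) and in gene bodies (green); points are libraries and horizontal lines are means. Between genes, CTCF at 1 h ranged from 80.5% to 97.7% and RAD21 from 46.2% to 64.5%, and RAD21 recovery replicate 2 stood at 98.3%.

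CTCF was present in every 1 h library at 3634 of the 4543 sites (80.0%), beside 57.1% of all 25605 CTCF sites shared by the untreated libraries, and in no 1 h library at 95 sites (2.09%), beside 5.85%. RAD21 was present in every 1 h library at 1880 sites (41.4%), beside 34.5% of the 10097 RAD21 sites shared by the untreated libraries, and in none at 1218 sites (26.8%), beside 32.4%. In 1 or 2 of the 1 h libraries RAD21 was found at the other 1445 sites. The backgrounds include the sites themselves, and the sites were chosen to have both proteins, so these shares are descriptions.

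Among these sites, RAD21 peaks at 1 h sat where CTCF peaks were also found. Both proteins were in every 1 h library at 1838 sites (40.5%; 33.7% of all shared RAD21 sites), CTCF in every and RAD21 in none at 575 sites (12.7%; 14.4%), and neither protein in any 1 h library at 92 sites (2.03%; 4.42%). The reverse state, RAD21 in every and CTCF in no 1 h library, occurred at 0 of the 4543 sites. It also occurred at 0 of 1478 sites at gene ends and 0 of 3310 in gene bodies. The sites were chosen by CTCF peaks, the CTCF lists were longer, and only 95 sites had CTCF in no 1 h library. The state therefore had little room to occur. Of the 1880 sites with RAD21 in every 1 h library, 1838 (97.8%) had CTCF in all 3 and the other 42 had it in 2. Of the 1218 sites with no RAD21, 575 (47.2%) had CTCF in all 3 and 92 (7.55%) in none. In single libraries of the same number, CTCF was present at 100%, 99.4% and 94.5% of the sites with RAD21, and at 95.7%, 88.0% and 59.8% of those without it. The set 2 CTCF list at 1 h accounts for many of the sites scored in 2 libraries, since 689 sites (15.2%, beside 31.1% of all shared CTCF sites) had CTCF in replicates 1 and 2 but not in set 2.

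**Figure D2:**
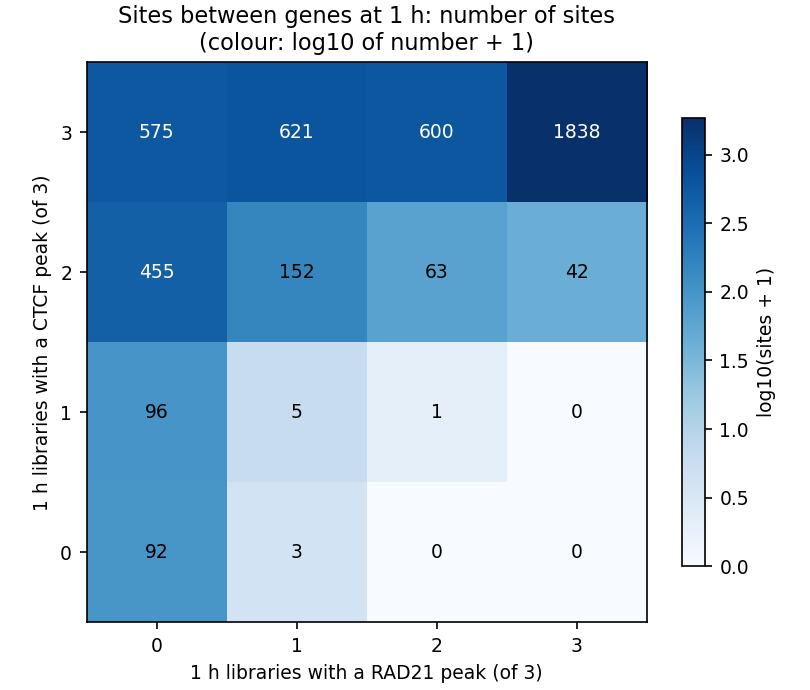
Number of sites between genes by how many of the 3 CTCF libraries (vertical) and of the 3 RAD21 libraries (horizontal) had a peak at 1 h; the colour scale is the log10 of the number plus 1. The corner with both proteins in every library holds 1838 sites and the corner with RAD21 in every and CTCF in no library holds 0.

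The strongest sites with both proteins in every 1 h library show how enrichment stood in single libraries. The values below are the fold enrichments that the authors' lists give for the peak at the site, and they describe a peak within its own list only. The site between DTNBP1, a subunit of a complex in lysosome biogenesis, and MYLIP, a ubiquitin ligase of the LDL receptor (chromosome 6, 15691057 to 15691788, hg38, 28.0 kb from a gene end), had RAD21 fold enrichments of 47.5, 47.3 and 42.9 without stress, 13.8, 31.2 and 12.5 at 1 h and 21.2, 73.4 and 13.6 in recovery. Its CTCF values were 48.2, 37.7 and 28.9 without stress and 39.3, 20.9 and 18.3 at 1 h. Over all sites between genes with a peak, the median RAD21 fold enrichment was 13.0, 9.51 and 12.8 without stress and 7.46, 9.21 and 6.94 at 1 h, so values of single sites are not read across lists. Within its own list the site ranked at percentile 99.9 or above in every untreated library and at 95.2, 99.6 and 93.1 at 1 h.

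Beside HMGA2, an architectural chromatin protein, the MSRB3-HMGA2 site (chromosome 12, 65556554 to 65557186), whose core is shown above, had RAD21 at 40.3, 22.1 and 29.3 without stress and at 13.5, 17.4 and 17.7 after 1 h. CTCF there was 46.4, 45.0 and 29.4 without stress and 50.7, 33.4 and 21.7 at 1 h. Its RAD21 peak ranked at percentile 94.4, 92.8 and 98.8 of the 1 h lists. The site between NRP2, a semaphorin receptor, and INO80D, a subunit of a chromatin remodeler (chromosome 2, 205925759 to 205926383), had RAD21 at 46.7, 30.8 and 26.7 before and 25.6, 33.2 and 22.1 at 1 h, where it ranked at percentile 99.9, 99.7 and 99.7. The VEGFC-NEIL3, SRCIN1-EPOP and IRX6-MMP2 sites completed the 6 strongest, with untreated RAD21 values of 22.4 to 42.4 and 1 h values of 13.6 to 30.5.

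At the strongest sites that kept CTCF without RAD21, the RAD21 peak was missing from all 3 lists at 1 h. Between RCOR3, a corepressor, and TRAF5, a signalling adaptor of the TNF receptor family (chromosome 1, 211323167 to 211323942), RAD21 stood at 19.6, 12.9 and 14.2 without stress and had no peak at 1 h, while CTCF went from 47.8, 22.04 and 18.1 to 35.5, 24.95 and 8.57. Between MPZL1, a cell surface receptor, and ADCY10, the soluble adenylyl cyclase (chromosome 1, 167803194 to 167803807), RAD21 was 14.2, 12.8 and 12.7 without stress, absent at 1 h, and 23.4 and 8.57 in recovery replicate 2 and set 2 with no peak in replicate 1. The site between SRSF3, a splicing factor, and CDKN1A, the cell cycle inhibitor p21 (chromosome 6, 36623364 to 36623843), behaved alike in presence, with RAD21 at 13.2, 11.7 and 16.3 untreated, CTCF at 16.7, 14.8 and 5.61 at 1 h, and RAD21 at 12.7 and 4.71 in the same 2 recovery libraries. These 6 sites, with BSDC1-ZBTB8B, FBXO33-LRFN5 and MAP7D1-THRAP3, all had a RAD21 peak in at least 2 recovery libraries. They were picked as the strongest. Of all 1218 sites with RAD21 in no 1 h library, 344 had it in 2 recovery libraries and 135 in 3, while 685 had it in 1 and 54 in none.

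The 92 sites with neither protein in any 1 h library had weaker CTCF before stress. The lowest untreated CTCF percentile (the rank of the peak's fold enrichment in its own list, taken in the list where it was lowest) had a median of 27.1 over these sites, against 54.5 over the 1838 sites with both proteins and 55.3 over the 575 with CTCF alone. For RAD21 the medians were 39.1, 74.3 and 37.8 in the same order. The strongest of the 92 lay between CEP57L1, a relative of a centrosomal protein, and CD164, a sialomucin (chromosome 6, 109236391 to 109236794). CTCF there was 21.8, 18.4 and 8.37 without stress and 5.01 and 5.94 at 7.5 min, had no peak at 30 min or 1 h, and was 7.57 in the set 2 recovery library. A second site of the IRX6-MMP2 interval (chromosome 16, 55371002 to 55371511) followed the same course, with CTCF at 29.0, 13.4 and 13.2 untreated, 8.14 and 3.40 at 7.5 min, none at 30 min and 1 h, and 14.0 in recovery, while the IRX6-MMP2 site named among the strongest kept both proteins. At KRT31-KRT37, between hair keratin genes, and at SLC1A7-CPT2, CTCF was already missing from both lists at 7.5 min. All 6 strongest sites of this group had CTCF again in the set 2 recovery list, which had CTCF at 99.9% of all sites between genes.

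CTCF had libraries at 7.5 and 30 min in set 1 alone. Between genes it was present at 99.1% and 95.6% of sites at 7.5 min (mean 97.4% ± 2.52, SD, n = 2), 89.7% at 30 min in 1 library (95% interval 88.8% to 90.5%), and 91.2% as the mean at 1 h. The 1 h mean minus that at 7.5 min was -6.17 points, with an exact permutation p of 0.4 where 0.2 is the smallest possible (0.64 adjusted over 8), and within replicates 1 and 2 the difference was -1.47 and -0.22 points. The 30 min list lacked 469 sites (10.3%, beside 21.7% of all shared CTCF sites). Of these, 260 (55.4%) had CTCF in 1 h replicate 2, which carries the same replicate number, whereas 2 sites went the other way. At gene ends 267 of 373 sites lacking CTCF at 30 min had it there, and in gene bodies 254 of 438, with 0 and 7 the other way. The 30 min list was also the shorter, with 26737 peaks against 34205. CTCF at 30 min was found at 68.9% of the 909 sites with the weakest untreated CTCF and at 98.9% of the 909 strongest. In set 2, 884 sites lacked CTCF at 1 h and 881 of these (99.7%) had it in the recovery library, where CTCF stood at 99.9% of all sites between genes. The same return was seen at 137 of 137 sites at gene ends and 639 of 641 in gene bodies, so it is not particular to sites between genes. That recovery list held 46377 peaks, against 22018 in the set 2 list at 1 h. CTCF recovery has 1 library, so this return has no replicate.

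RAD21 in recovery depended on 1 library. It was present at 43.8%, 98.3% and 62.9% of the sites in replicates 1, 2 and set 2 (mean 68.3% ± 27.7, SD, n = 3), 11.47 points above the 1 h mean with an exact permutation p of 0.7 (0.857 adjusted over 8). Without replicate 2 of recovery the difference was -3.54 points, and within replicate numbers it was -2.47, 33.8 and 3.04. In replicate 1, 643 sites (14.2%) gained a RAD21 peak between 1 h and recovery and 755 (16.6%) lost one. Gains and losses there were 24.2% and 7.44% at gene ends and 14.4% and 15.2% in gene bodies. In set 2, 696 (15.3%) gained and 558 (12.3%) lost a peak. The set 2 values were 22.7% and 7.31% at gene ends and 17.3% and 13.0% in gene bodies. In replicate 2, 1546 (34.0%) gained and 9 (0.198%) lost one. Gains in that replicate were 34.8% at gene ends and 38.3% in gene bodies. RAD21 was in every recovery library at 1760 sites (38.7%, beside 35.2% of all shared RAD21 sites). Of the 1880 sites with RAD21 in every 1 h library, 1216 (64.7%) had it in every recovery library and 1 in none.

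When the 4397 strongest peaks by the deposited -log10 p were taken from each of the 6 lists, the number in the shortest one, the sites between genes stood at nearly 1 level. They had RAD21 in 43.8%, 45.6% and 45.1% of cases at 1 h and in 43.8%, 45.0% and 46.5% in recovery. The same selection left gene ends at 28.8%, 44.9% and 27.7% at 1 h and at 46.8%, 55.1% and 39.9% in recovery. Between genes, recovery replicate 2 then lay between the other 2 recovery libraries, and the 1 h and recovery values overlapped. Equal numbers of peaks would also remove a real change in the number of bound sites. The selection therefore cannot tell such a change from a difference in list length alone.

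**Figure D3:**
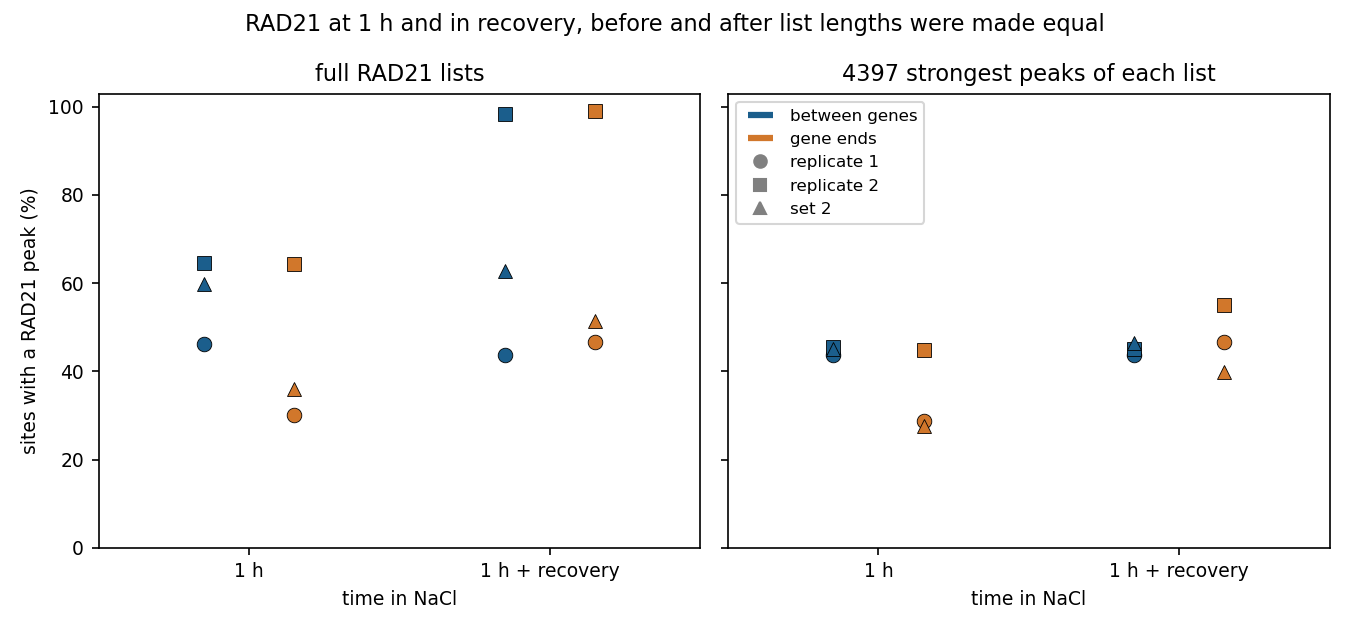
Share of CTCF-cohesin sites (%) with a RAD21 peak at 1 h and in recovery, between genes (blue) and at gene ends (orange), from the full lists (left) and from the 4397 strongest peaks of each list (right); each point is 1 library. With equal numbers of peaks the 6 values between genes lie between 43.8% and 46.5%, while those at gene ends run from 27.7% to 55.1%.

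At 135 sites (2.97%, beside 3.32% of all shared RAD21 sites) RAD21 was in no 1 h library and in every recovery library. The strongest lay between SASH1, a signalling adaptor, and UST, a sulfotransferase (chromosome 6, 148577992 to 148578629), with RAD21 at 28.0, 21.7 and 24.6 untreated, no peak at 1 h, and 11.1, 31.2 and 6.93 in recovery. Its CTCF was 55.2 and 36.7 untreated and 16.1 and 6.78 at 1 h in replicates 1 and 2, had no peak in the set 2 list at 1 h and was 25.6 in the set 2 recovery list. The KANK1-DMRT1 site (chromosome 9, 763931 to 764562), near a regulator of testis development, had RAD21 at 24.1, 14.8 and 21.1 untreated and 9.97, 21.6 and 9.76 in recovery. The site between CPSF6, a factor of mRNA 3′ end processing, and LYZ, the lysozyme gene (chromosome 12, 69290757 to 69291479), had 22.2, 11.4 and 24.3 untreated and 7.20, 17.2 and 10.8 in recovery. The 135 sites had a median lowest RAD21 percentile of 64.5, compared with 28.2 for the 54 sites with RAD21 in no 1 h and no recovery library.

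The strength of RAD21 before stress went with its presence at 1 h in each library. The sites were divided into 5 near-equal groups by their lowest untreated RAD21 percentile. From the weakest to the strongest group, RAD21 at 1 h was present at 16.7%, 30.0%, 45.7%, 58.6% and 80.1% of sites in replicate 1, at 38.7%, 47.1%, 64.3%, 80.1% and 92.4% in replicate 2, and at 26.7%, 46.2%, 61.4%, 75.3% and 89.5% in set 2. Each of the 3 libraries was higher at every step. Grouped instead by the lowest untreated CTCF percentile, the means over the 3 libraries were 55.0%, 54.3%, 52.6%, 56.2% and 66.3%, so that only the strongest group stood above the rest. Within the strongest RAD21 group, sites with low, middle and high CTCF had RAD21 in 91.9%, 84.3% and 86.9% of cases (means of 3), and in the weakest RAD21 group in 27.3%, 25.5% and 30.3%. CTCF itself was present at 1 h at 86.4% of sites in the weakest and 96.3% in the strongest RAD21 group. The untreated lists that define these groups also chose the sites.

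**Figure D4:**
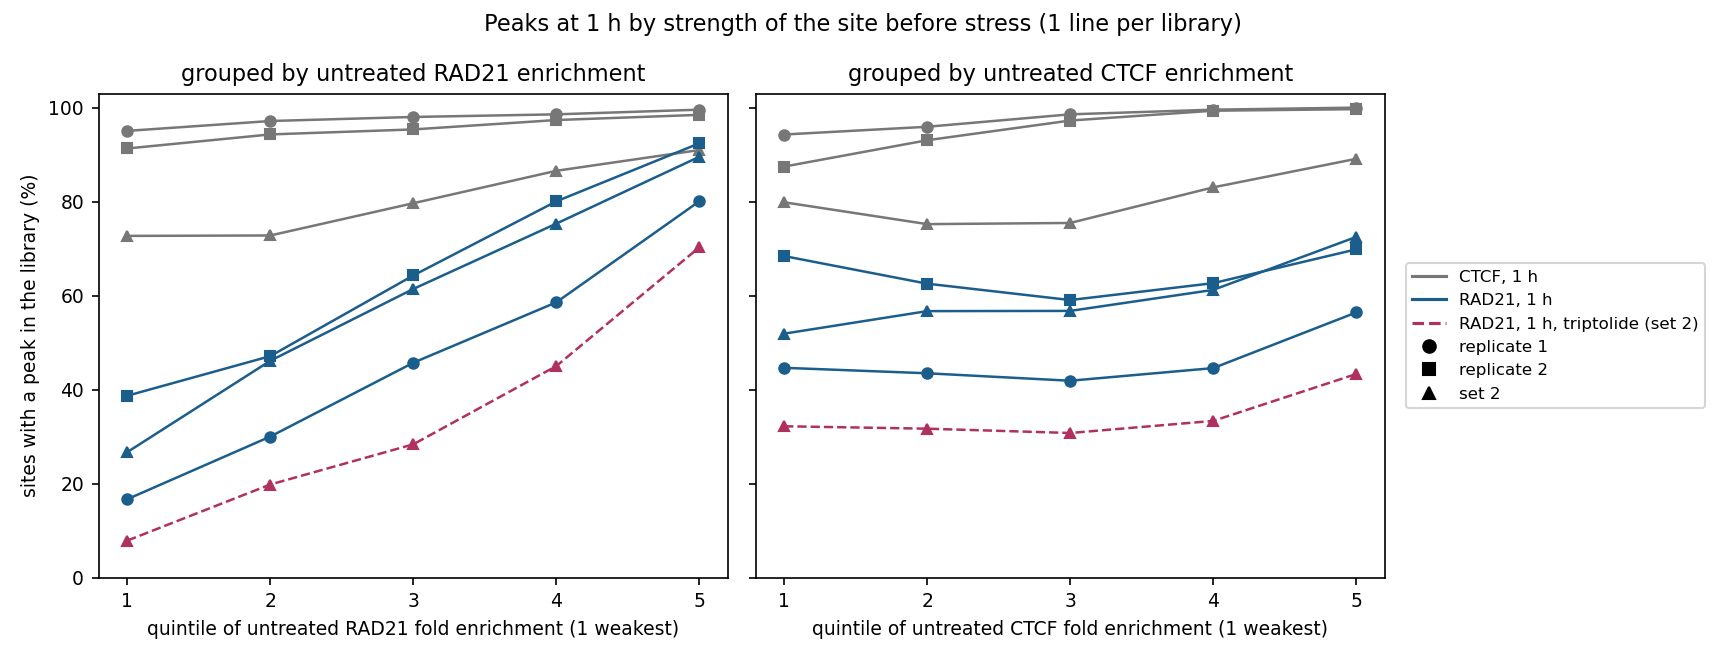
Share of sites between genes (%) with a CTCF or RAD21 peak at 1 h, for 5 groups of sites ordered by untreated RAD21 (left) or untreated CTCF (right) fold enrichment percentile; each line is 1 library and the dashed line is the triptolide library. RAD21 at 1 h climbs from 16.7% to 80.1% in replicate 1 across the RAD21 groups, whereas across the CTCF groups the means stay between 52.6% and 66.3%.

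Compared with other positions, sites between genes had RAD21 at 1 h more often than gene bodies in each library. The difference was 5.02, 4.70 and 4.54 points (mean 4.75; exact sign-flip permutation p = 0.25, the smallest that 3 libraries allow, 0.64 adjusted over 8). The mean was 2.03 points when sites were compared within 5 groups of their lowest untreated fold enrichment percentile for the protein. Against gene ends the differences were 16.2, 0.241 and 23.8 points (mean 13.4; exact sign-flip permutation p = 0.25, 0.64 adjusted), so in replicate 2 the 2 positions were nearly level. Matched in the same way on untreated strength, the mean difference in RAD21 from gene ends was 0.619 points (exact permutation p = 1). For CTCF at 1 h the libraries differed in sign. Its difference from gene ends was -1.05, 2.53 and -10.2 points (mean -2.90; exact permutation p = 0.75, 0.857 adjusted) and that from gene bodies -0.249, 1.13 and -0.0929 points (mean 0.261; exact permutation p = 1). Matched on untreated strength, CTCF between genes minus gene ends was -3.75 points with the same sign in all 3 libraries (exact permutation p = 0.25, the smallest possible), and the difference from gene bodies was 0.0134 points. In recovery RAD21 differed from gene ends by -2.99, -0.704 and 11.4 points, values for which no test was planned. At 30 min, in the 1 library (replicate 2), CTCF was present at 89.7% of sites between genes, 86.8% in gene bodies and 74.8% at gene ends. The difference from gene ends was already 15.3 points at 7.5 min in replicate 2, against 0.833 in replicate 1, and the gene-end peaks of untreated CTCF replicate 2 had a median percentile of 23.3, against 76.9 in replicate 1 and 92.0 in set 2. For untreated RAD21 the gene-end medians were 65.2, 63.5 and 45.7 in replicates 1, 2 and set 2. The matching took the lowest untreated percentile, so 1 low list could place a gene-end site among weak ones. Matching without the low list was not run.

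RAD21 peaks at sites between genes made up a larger part of the shorter 1 h lists than of the untreated lists, as did those in gene bodies. They were 25.6% ± 7.48 of the RAD21 peaks listed without stress and 41.1% ± 3.35 at 1 h (SD, n = 3 each), gene bodies were 18.6% ± 5.44 and 27.2% ± 1.70, and gene ends 8.60% ± 2.66 and 9.89% ± 2.16. These shares were not compared by a test, and the untreated lists chose the sites. The shares also moved with list length. Sites between genes made up 45.6% of the 4397 peaks of recovery replicate 1 and 22.1% of the 20400 peaks of recovery replicate 2. CTCF sites between genes that had no RAD21 peak in any untreated list (2516 sites) had RAD21 at 0.318% on average at 1 h, and CTCF in every 1 h library at 791 (31.4%). The latter were chosen without RAD21, and their CTCF peaks were also weaker within the lists, with a median percentile of 65.7 against 81.4 in untreated replicate 1.

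Pol II regions overlapped 31.9% and 38.5% of the sites between genes without stress and 21.7% and 26.7% at 1 h. The difference of -11.0 points had an exact permutation p of 0.3333, the smallest for 2 against 2 libraries (0.64 adjusted over 8), and both 1 h values lay below both untreated ones. The lists held 105302 and 88046 regions without stress and 107396 and 216968 at 1 h, and region widths were not compared. Median Pol II fold enrichment at the sites was low, at 1.43 and 1.55 without stress and 1.18 and 1.12 at 1 h. At gene ends the values went from 64.8% and 73.1% to 38.9% and 42.9%. Between genes, 932 sites (20.5%, beside 23.9% of all shared CTCF sites) had Pol II in both untreated libraries, of which 403 (8.87% of all sites, beside 10.7%) had it in no 1 h library, and 116 (2.55%, beside 2.17%) had Pol II only at 1 h, in both libraries. RAD21 at 1 h was found at 46.4%, 66.8% and 57.3% of the 932 sites with Pol II, and at 44.4%, 62.0% and 59.6% of the 2279 sites with Pol II in neither untreated library. The mean difference was 1.49 points, with 1 library in the other direction (exact sign-flip permutation p = 0.75, an addition to the 8 comparisons). Within groups of equal untreated RAD21 percentile it was 0.0358 points (exact permutation p = 1). Sites inside and outside long noncoding RNA spans had RAD21 in 57.5% and 56.6% of cases at 1 h.

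Position in the interval between genes went with RAD21 at 1 h mainly at large distances. At 1 to 5 kb from a gene end RAD21 was present at 45.5%, 65.0% and 57.2% of 815 sites, at 20 to 100 kb at 48.6%, 67.4% and 63.0% of 1563 sites, at 100 to 500 kb at 41.7%, 54.7% and 56.9% of 636 sites, and over 500 kb away at 37.7%, 52.2% and 50.0% of 138 sites. CTCF at 1 h was nearly level over the same distances in replicates 1 and 2 (99.0% and 96.7% at 1 to 5 kb, 97.1% and 94.2% over 500 kb) and differed in set 2, at 85.4% and 62.3%. Sites over 200 kb from the next CTCF-cohesin site had RAD21 in 40.2%, 53.9% and 53.9% of cases, and sites within 10 kb of one in 51.3%, 69.1% and 62.7%. The median lowest untreated RAD21 percentile also differed, at 55.1 for the isolated sites and 59.7 for the close ones, and its part in the difference was not tested.

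**Figure D5:**
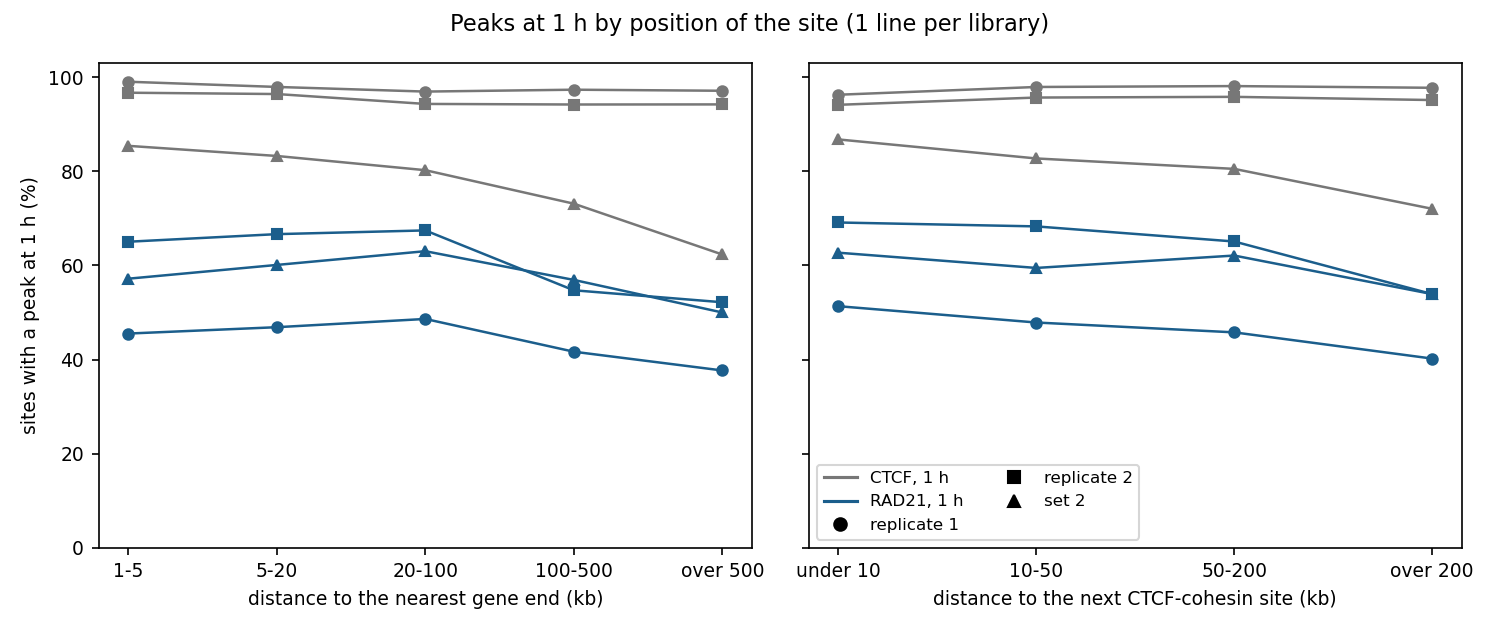
Share of sites between genes (%) with a CTCF (grey) or RAD21 (blue) peak at 1 h by distance to the nearest gene end (left) and to the next CTCF-cohesin site (right), in kb; each line is 1 library. RAD21 is lowest over 500 kb from a gene end (37.7% to 52.2%) and over 200 kb from the next site (40.2% to 53.9%).

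The 6 most remote sites differed among themselves. The farthest (chromosome 22, 11285555 to 11286182), 4242 kb before OR11H1, an olfactory receptor gene, had both proteins in every 1 h library, with RAD21 at 14.0, 14.3 and 14.1 untreated and 6.69, 9.02 and 5.08 at 1 h. The site between NCAM2, a neural adhesion molecule, and MRPL39, a mitochondrial ribosomal protein (chromosome 21, 23452559 to 23453295, 1909 kb from a gene end), kept CTCF in every 1 h library, had RAD21 in replicate 2 alone at 1 h (7.04) and in every recovery library (9.36, 15.3 and 6.35). The PCDH7-ARAP2 site on chromosome 4 had no RAD21 at 1 h and a peak in recovery replicate 2 alone (4.18).

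Intervals between neighbouring genes often held several sites. Of 3175 intervals with a site, 2292 held 1, 883 held 2 or more and 36 held 5 or more, and 48.3% of all sites lay in intervals with company. The fullest was the 519.9 kb between PLS3, an actin bundling protein, and AGTR2, the angiotensin type 2 receptor, on X, with 9 sites, all of which had CTCF and RAD21 in every 1 h library. This interval is known to contain the DXZ4 tandem repeat, an array of near-identical copies in which short reads cannot always be placed, and whether the 9 sites lie in it was not determined. Only 2 of its 9 sites had RAD21 in every recovery library. The 8 sites between SH2D4B and NRG3, a ligand of ERBB4, on chromosome 10 were mixed, with CTCF in every 1 h library at 6, RAD21 in every at 3 and in none at 2. The 6 sites between SDK2 and RPL38 on chromosome 17 had CTCF in every 1 h library at 5 and RAD21 in every at 1.

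Sites that share an interval were compared in order along it. There were 1309 adjacent pairs of sites within 1 interval. After a site with RAD21 in every 1 h library, the next site also had it in every library in 43.4% of pairs, and after a site with RAD21 in none, in 45.5%, both near the 41.4% of all sites.

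Lists of genes were used to place the sites beside known programmes. They were chosen with earlier results in view, a site counted for a list when the protein-coding gene next to it on either side was a member, and the shares of all 4543 sites (80.0% with CTCF in every, 41.4% with RAD21 in every and 26.8% with RAD21 in no 1 h library) are the level to read against. Luminal identity genes had 36 such sites, of which CTCF was in every 1 h library at 24, RAD21 in every at 17 and in none at 11. Targets of oestrogen and progesterone had 29 sites, with CTCF in every library at 23, RAD21 in every at 15 and in none at 6. Immediate early and MAP kinase response genes had 51, with 40, 26 and 11 in the same order. Genes of osmolyte transport and the NFAT5 pathway had 10, with 7, 6 and 2. The HOX clusters, arrays of homeobox genes partitioned by CTCF, had 13, with 10, 9 and 2. Genes of cohesin, CTCF and loop factors had 11 with 10, 4 and 1, and imprinted genes 10 with 8, 4 and 4. Markers of blood cells, nearly all without Pol II cover in these cells, had 15 with 10, 3 and 5. Neuronal and muscle markers had 5 with 5, 2 and 1, and fibroblast markers 8 with 7, 4 and 1. No list was tested against the other sites.

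Beside luminal genes, the KRT78-KRT8 site (chromosome 12, 52884570 to 52885241), near the keratin 8 gene of simple epithelia, had RAD21 at 27.2, 15.9 and 23.02 untreated, 16.4, 21.1 and 14.0 at 1 h and 7.99, 23.2 and 6.05 in recovery. The AGR3-AHR site (chromosome 7, 16891262 to 16891744), next to a secreted protein of luminal cells, had RAD21 at 14.4, 8.92 and 22.2 untreated and a 1 h peak in set 2 alone (8.16). Among hormone targets, the site beside CXCL12, a chemokine (chromosome 10, 44386267 to 44387143), kept RAD21 in every 1 h library (28.8, 31.4 and 15.0 before, 7.42, 15.2 and 6.52 at 1 h). The site beside TFF3, a trefoil peptide (chromosome 21, 42308825 to 42310154), had weak RAD21 at 5.67, 7.97 and 7.54, no peak at 1 h and CTCF at 20.7, 8.44 and 13.1 at 1 h.

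Beside osmolyte genes, the SLC12A2-FBN2 site (chromosome 5, 128201294 to 128201816), near the Na-K-Cl cotransporter used in volume regulation, had RAD21 at 42.2, 42.7 and 29.1 untreated, 10.4, 25.1 and 9.16 at 1 h and 22.2, 67.2 and 9.05 in recovery. It ranked at percentile 83.5, 98.5 and 79.0 of the 1 h lists. The site near AKR1B1, the aldose reductase that makes sorbitol (chromosome 7, 134432449 to 134433083), had 13.6, 7.64 and 11.1 untreated and 9.02, 10.4 and 7.05 at 1 h. The AQP5-AQP6 site (chromosome 12, 49966770 to 49967995), between water channels, had 12.2, 13.3 and 8.24 untreated and 5.34, 6.66 and 3.93 at 1 h, where it ranked at percentile 19.7, 40.4 and 9.86. All 3 sites had CTCF and RAD21 in every 1 h library.

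Among response genes, the LMNB2-GADD45B site (chromosome 19, 2474430 to 2475023), near a stress sensor, had RAD21 at 21.2, 22.9 and 9.06 untreated and 6.99, 17.6 and 5.46 at 1 h. The site beside FOSB, an AP-1 subunit (chromosome 19, 45478923 to 45479421), had 15.9, 8.37 and 15.6 untreated, 6.26, 7.98 and 6.71 at 1 h, and in recovery a peak in replicate 2 alone (11.4). The 3 HOX sites nearest a gene, at HOXD13-HOXD12, HOXB8-HOXB9 and HOXC9-HOXC8, all had both proteins in every 1 h library. At HOXC9-HOXC8 (chromosome 12, 54005769 to 54006374) RAD21 was 19.9, 22.4 and 13.3 untreated and 14.8, 19.4 and 11.4 at 1 h. Near CDKN1C, an imprinted cell cycle inhibitor, 1 site (chromosome 11, 2888320 to 2888808) had RAD21 at 19.8, 12.1 and 12.2 untreated and no peak at 1 h, with CTCF at 33.0, 12.2 and 15.6 untreated and 46.1, 19.9 and 18.5 at 1 h. The MAU2-GATAD2A site shown above lies beside the gene of a cohesin loader, and its RAD21 values of 18.7, 12.6 and 16.3 untreated were followed by 1 peak at 1 h, in set 2 (3.73), and by 8.32, 23.7 and 5.57 in recovery.

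With triptolide, each state had 1 library in set 2, so no test was possible. Which library had triptolide was taken from the titles, with which the pre-treatment entry disagreed for part of set 2. RAD21 at 1 h was present at 34.3% of the sites between genes with triptolide and at 59.8% without it, and CTCF at 79.5% and 80.5%. In recovery RAD21 stood at 99.6% with triptolide and 62.9% without, and CTCF at 98.1% and 99.9%. Without stress, RAD21 with triptolide was present at 99.98% and CTCF at 99.96% of the sites. The sites were chosen by peaks in every untreated list, so these shares cannot show a gain. The unstressed RAD21 list held 40969 peaks with triptolide and 24931 without it in set 2. Median RAD21 fold enrichment at the sites was 21.3 and 12.8 in these lists. At 1 h and in recovery the RAD21 lists differed in length in the same direction as the shares. They held 3344 peaks against 6630 at 1 h and 22967 against 6492 in recovery. The same number of strongest peaks was then taken from both lists of a pair. The RAD21 values became 34.3% and 36.6% at 1 h and 64.5% and 62.9% in recovery. This selection was chosen after the data were seen, and it would also remove a real difference in the number of bound sites.

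The sites that kept RAD21 at 1 h with triptolide were largely those that kept it without. Of the 1880 sites with RAD21 in every 1 h library, 1364 (72.6%) had it in the triptolide library, of the 1445 with RAD21 in 1 or 2 libraries 184 (12.7%), and of the 1218 with none 10 (0.821%). Across the 5 groups of untreated RAD21 strength the triptolide library held 7.92%, 19.8%, 28.4%, 45.0% and 70.3% of the sites.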

How the data were processed

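The deposited peak lists of 29 of the 41 samples were analysed (13 CTCF, 12 RAD21 and 4 Pol II), and the input samples were not analysed here. The authors' lists are in the MACS2 peak layout on hg38 and give, per peak and as deposited, a score, a fold enrichment over background, the -log10 of p and of q, and a summit position. The submitters' processing notes name Bowtie2 2.2.6, MACS2 and cutadapt, and for set 1 also DiffBind 2.4.6, DESeq2 and HOMER, without settings. A longer list can come from a deeper or cleaner library as well as from more binding, so shares of sites move with list length.

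From these lists, sites were merged and overlapped by at least 1 bp against 19821 protein-coding genes of RefSeq, after leaving out 153 gene entries on scaffolds. "Any gene end" was read as the end of a protein-coding gene. The percentile of a peak is the rank of its fold enrichment in its own list. Shares of sites per library were compared by exact 2-sided permutation over libraries, or by exact sign flips of within-library differences, with Benjamini-Hochberg adjustment over 8 comparisons (Python 3.11.15, numpy 2.4.6, pandas 2.3.3, scipy 1.17.1). The overlap and share code was tested on simulated peaks. Groups follow the sample titles. Sites are named by the genes on both sides. Named are, in each of 4 classes, the 6 with the highest percentile in the untreated library where they rank lowest, the 6 farthest from a gene end, and up to 3 nearest a gene of each list, and not all of these are printed. Sequences came from RefSeq promoter windows (GRCh38.p14), and the examples are, per class of RAD21 presence at 1 h, up to 4 of the strongest sites with a motif there; 1 of these and 1 interval between genes are not reported here. The sites and lists were chosen with earlier results of these data known. Alternatives were a summit within 100 bp, -log10 q of at least 5, a 5 kb margin, every annotated gene, equal numbers of peaks, each set alone, matching on strength and leaving out each library.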

Additional observations from a re-analysis of the deposited data

Results flagged for a closer look

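The difference between triptolide and no triptolide in the share of sites between genes with RAD21 had opposite signs in the 2 states, and each state had 1 library per arm, so the difference between states was not tested. At 1 h it was -25.5 percentage points and in recovery 36.8 points. The RAD21 lists compared were also of different length in the same direction, 3344 against 6630 peaks at 1 h and 22967 against 6492 in recovery. Triptolide groups followed the titles, with which the pre-treatment entry disagreed for part of set 2. The effect of that disagreement on these values was not tested.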

How the results depend on the processing

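Of 237 alternative values, 217 were counted as unchanged, which for the 8 tested differences means only the same sign, for counts within 1.5 times, and for the triptolide differences within their counting interval. Several differences kept their sign and became much smaller. Matched on the lowest untreated percentile, RAD21 between genes minus gene ends went from 13.4 to 0.619 points and minus gene bodies from 4.75 to 2.03. With equal numbers of strongest peaks, RAD21 recovery minus 1 h went from 11.47 to 0.249 points, a selection that would also remove a real change in the number of bound sites. With a 5 kb margin, RAD21 minus gene ends was 8.90. None of the 8 tests could pass 0.05 at these numbers of libraries, so the alternatives bear on direction and size only. With every annotated gene in place of protein-coding genes, 3023 sites remained, with CTCF in every 1 h library at 2420 and in none at 58, and RAD21 in no 1 h and every recovery library at 89; the gene set is larger by construction. With equal numbers of strongest peaks, CTCF was in no 1 h library at 358 sites.

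Leaving out 1 library at a time, the number of sites ran from 4555 to 6882, the highest without untreated RAD21 replicate 2, which holds the shortest untreated list. This number and the counts that follow ask for presence or absence in every library, so leaving 1 out could hardly lower them. Sites with CTCF in every 1 h library ran from 3634 to 4872, with CTCF in none from 95 to 233 (186 without CTCF 1 h replicate 1), with RAD21 in every from 1881 to 2370, with RAD21 in none from 1221 to 2818, and with RAD21 in none at 1 h and in every recovery library from 135 to 419 (254 without RAD21 1 h replicate 2, 419 without recovery replicate 1). RAD21 recovery minus 1 h ran from -3.54 to 23.8 points and turned negative without recovery replicate 2. CTCF between genes minus gene ends ran from -5.62 to 4.45 points, positive without untreated CTCF replicate 2 (4.45) or CTCF 1 h replicate 3 (0.740), and that minus gene bodies from -0.171 (without CTCF 1 h replicate 2) to 1.11. The other ranges were -9.74 to -0.847 for CTCF at 1 h minus 7.5 min, 29.0 to 43.5 for CTCF minus RAD21, 5.07 to 20.0 and 4.62 to 5.41 for RAD21 against gene ends (5.07 without untreated RAD21 replicate 2, 8.21 without RAD21 1 h replicate 3) and bodies, and -14.3 to -7.67 for Pol II.

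Libraries of the same number did not deviate together in every pair (r from 0.0307 to 0.114 for RAD21 at 1 h and in recovery, from -0.0548 to 0.0722 for CTCF and RAD21 at 1 h, 0.0222 for Pol II). For RAD21 at 1 h and in recovery, other numbers gave -0.107 to 0.0506. The 2 same-number pairs of CTCF at 7.5 min and 1 h had r of 0.196 and 0.267. With 2 libraries at 7.5 min, and with 2 per Pol II group, the other-number values mirror the same-number ones and are no separate comparison. No label says what a number marks, so the numbers were not taken as pairs. With the replicate number as a block, RAD21 recovery minus 1 h was 11.47 points (exact permutation p = 0.5), CTCF at 1 h minus 7.5 min -0.847 (0.5), CTCF minus RAD21 34.3 (0.25) and Pol II -11.0 (0.5).

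Chosen after the data were seen, equal numbers of peaks within set 1 gave -0.308 points for RAD21 recovery minus 1 h. For triptolide they gave -1.25 points for CTCF in recovery, -2.27 for RAD21 at 1 h and 1.58 for RAD21 in recovery, while -log10 q of at least 5 gave 38.4 for the last. The cause of these shifts was not tested, and equal numbers of peaks cannot separate list length from a change in binding. List length limits all shares, since a site without a listed peak may still be bound.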
